A study of Mus musculus with 6 samples.

Results

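Transforming growth factor beta (TGF-beta) signalling was examined through 10 genes, taken as the rows of the deposited table whose symbol is Tgfb1, Tgfb2, Nrros, Tgfbr1, Tgfbr2, Smad2, Smad3, Smad4, Smad7 or Skil. All 10 were found among the 55414 genes of the table, and all 10 passed the filter on low counts that left 17739 genes for testing. RNA came from microglia, the macrophages that live in brain tissue, of adult C57BL/6 mice aged 10 months that were wild type (WT) or carried the genotype labelled Selk-/-, a knockout of Selenok, with 3 libraries in each group. The sources used here do not say how the allele was made, how microglia were isolated or whether the libraries of a group are from different mice. The p-values therefore rest on differences among libraries that may be technical repeats.

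TGF-beta is secreted in a latent form, wrapped in its own propeptide. NRROS holds latent TGF-beta1 on the surface of microglia and other myeloid cells, and an integrin on a neighbouring cell releases it. The active ligand binds the receptor TGFBR2, which recruits and phosphorylates TGFBR1, and TGFBR1 in turn phosphorylates SMAD2 and SMAD3. These enter the nucleus with SMAD4, while SMAD7 acts at the receptor and SKIL (SnoN) at the SMADs to restrain the signal, and both of these inhibitors are themselves known targets of the pathway. In the mouse brain this pathway is known to keep microglia in their resting identity.

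Total counts were 21112082 to 28123871 per library. Selenok averaged 119 ± 6.57 CPM in WT libraries and 110 ± 2.19 CPM in those labelled Selk-/- (SD, n = 3 each; CPM are counts scaled to library size, here with TMM factors), and its groups overlapped, so gene totals do not check the labels. The 10 defining microglia markers were all present in every library and summed to 25294 to 25517 CPM in WT and 21375 to 22389 CPM in the Selk-/- libraries. Summed small nucleolar RNA was 46.0 and 54.9 CPM of the unscaled total in Selk-/- replicates 2 and 3, against 318 to 327 CPM in the remaining 4 libraries. Summed neutrophil markers reached 6372 CPM in the second Selk-/- library, replicate 2, and lay between 455 and 1230 CPM elsewhere.

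The ligand genes Tgfb1 and Tgfb2, the receptor Tgfbr2 and the transducer Smad3 were lower in each Selk-/- library than in any WT library. The largest difference was in Tgfb2, at a log2 fold change of -0.64, and the other 3 lay between -0.22 and -0.29. The receptor Tgfbr1, Smad2, Smad4 and the inhibitors Smad7 and Skil had estimates above WT, between 0.04 and 0.19, and these and Nrros overlapped between groups. A further ligand gene, Tgfb3, is not among the 10 and is named after its value was seen. It averaged 23.6 CPM in WT and 24.9 CPM in the Selk-/- libraries (log2 fold change 0.08), and its groups overlapped. None of the 10 passed adjusted p 0.05 in edgeR's quasi-likelihood test, where 0% of the 17739 genes tested did. The groups did not overlap in 4 genes, all in the lower direction, which is 4 of 10 beside 13.7% of all genes tested that were lower without overlap and 26.2% without overlap in either direction. Among the 10051 genes with at least 10 CPM in 3 libraries, which include all 10 members, 34.2% did not overlap in either direction. The same 4 members were those with an unadjusted p under 0.05, which 19.1% of all genes had, 9.74% in the lower and 9.34% in the higher direction. With DESeq2, 2 of the 10, Tgfb2 and Tgfbr2, were called at adjusted p 0.05, both lower, beside 9.27% of the 10730 genes that it gave an adjusted p, 4.43% lower and 4.85% higher.

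The stretches just upstream of the starts of the 4 genes without overlap are shown because these genes were lower together. RefSeq entries were matched by symbol for 6 of the 10 genes, and each stretch holds the 250 bases before the RefSeq start on GRCm38.p6, read 5′ to 3′ on the strand of the gene. Capitals mark matches, on either strand, to the short SMAD box CAGAC, the GC box GGGCGG and the TATA box TATAAA. The SMAD palindrome GTCTAGAC, which shares the letters AGAC with the SMAD box, the PU.1 motif GAGGAAGT and the AP-1 motif TGANTCA were also searched and had no match in these 4.
Tgfb2 (chr1:186705990-186706239, minus strand): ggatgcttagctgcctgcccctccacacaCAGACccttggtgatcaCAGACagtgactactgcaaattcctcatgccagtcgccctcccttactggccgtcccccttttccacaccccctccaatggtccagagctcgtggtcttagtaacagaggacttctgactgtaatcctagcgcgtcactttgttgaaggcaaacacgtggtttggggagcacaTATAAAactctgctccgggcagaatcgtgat
Tgfb1 (chr7:25686752-25687001, plus strand): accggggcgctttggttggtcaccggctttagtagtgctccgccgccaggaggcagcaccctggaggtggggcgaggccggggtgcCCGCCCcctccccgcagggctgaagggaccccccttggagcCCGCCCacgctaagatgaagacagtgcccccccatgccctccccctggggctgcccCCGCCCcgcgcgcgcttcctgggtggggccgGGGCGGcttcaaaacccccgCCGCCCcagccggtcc
Tgfbr2 (chr9:116175364-116175613, minus strand): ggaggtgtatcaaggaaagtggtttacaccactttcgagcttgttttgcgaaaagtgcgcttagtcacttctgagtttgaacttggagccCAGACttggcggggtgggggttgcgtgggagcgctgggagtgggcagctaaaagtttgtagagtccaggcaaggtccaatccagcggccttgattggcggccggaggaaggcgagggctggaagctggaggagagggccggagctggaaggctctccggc
Smad3 (chr9:63757995-63758244, minus strand): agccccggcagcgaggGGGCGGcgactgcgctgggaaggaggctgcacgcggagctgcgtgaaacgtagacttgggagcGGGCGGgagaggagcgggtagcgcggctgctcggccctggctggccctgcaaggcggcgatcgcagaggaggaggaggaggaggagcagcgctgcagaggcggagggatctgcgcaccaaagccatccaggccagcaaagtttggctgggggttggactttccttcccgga

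The 4 stretches share no one motif. The Tgfb2 stretch holds 2 SMAD boxes and 1 TATA box and the Tgfbr2 stretch 1 SMAD box, whereas Tgfb1 has 5 GC boxes and Smad3 has 2. Over all 32851 RefSeq stretches of the same length, 42.2% hold a SMAD box, 32.7% a GC box and 12.4% a TATA box. The SMAD palindrome, PU.1 and AP-1 motifs are in 0.167%, 2.44% and 6.75%. Base composition differs as well: G and C make up 53.6% of the Tgfb2 stretch, 58.4% of that of Tgfbr2, 69.2% of that of Smad3 and 75.2% of that of Tgfb1, with a median of 52.4% over all. A match is a run of letters, not a measured binding site.

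Of the ligand genes among the 10, Tgfb1 was the abundant one. Tgfb1 (ENSMUSG00000002603, chromosome 7, 25386427 to 25404502 in the deposited table, which names no build) gave 234, 214 and 227 CPM in WT replicates 1 to 3, against 202, 183 and 196 CPM in Selk-/- replicates 1 to 3. The highest Selk-/- library was thus below the lowest WT library, and replicate 2 was the lowest of each group. The means were 225 ± 10.3 and 194 ± 9.83 CPM (SD, n = 3 each), which is a log2 fold change of -0.22 (SE 0.073, 95% interval -0.39 to -0.05), at an adjusted p of 0.180 in edgeR. DESeq2 gave an adjusted p of 0.0636.

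Tgfb2, the ligand better known from astrocytes, neurons and developing tissues, was the least abundant of the 10. Tgfb2 (ENSMUSG00000039239, chromosome 1, 186354989 to 186438186) gave 35.8, 31.4 and 33.7 CPM in WT, against 23.2, 18.8 and 22.7 CPM in the Selk-/- libraries, from 830 to 1009 counts per WT library and 479 to 634 counts per Selk-/- library. The gap between the groups was wider than the range within either group. The edgeR estimate was -0.64 (SE 0.104, 95% interval -0.88 to -0.40), which puts the Selk-/- level at 0.642 of that in WT. DESeq2 called it (adjusted p = 1.4e-04) and edgeR did not (adjusted p = 0.105). It also passed in edgeR when only genes with at least 10 CPM in 3 libraries were tested, at an adjusted p of 0.0495. Genes of the opposite strand that overlap its span had at most 2 counts in any library.

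Astrocyte markers, whose cells are a known source of Tgfb2, summed to 373 to 566 CPM in WT and 379 to 466 CPM in the Selk-/- libraries. These sums overlapped between groups, and 8 of the 10 markers were lower in the Selk-/- mean, with none at 0 in all libraries. Neuron markers summed to 46.6 to 53.1 and 45.7 to 51.7 CPM and also overlapped. Oligodendrocyte markers summed to 212 to 349 CPM in WT and 153 to 260 CPM in the Selk-/- libraries, with overlap and 10 of 10 lower in the mean. Choroid plexus and ependyma markers summed to 2145 to 3444 and 2279 to 3092 CPM, with overlap. The part of any of these cells in the Tgfb2 level was not tested. In bulk RNA, fewer cells of a type and less RNA per cell cannot be told apart.

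The genes whose profile over the 6 libraries was most like that of Tgfb2 were Klhdc8b, Tnfrsf13b and Ppfia4. Likeness was the root mean square difference between log2 CPM profiles, each taken around the gene's own mean, among 10035 genes with a mean of at least 10 CPM. It was 0.039 for Klhdc8b, a kelch repeat protein, 0.046 for Tnfrsf13b, the lymphocyte receptor TACI, and 0.056 for the liprin Ppfia4. Their log2 fold changes were -0.63, -0.59 and -0.58, each at an edgeR adjusted p of 0.105. The genes were picked for their likeness to Tgfb2 over the same 6 libraries. Differences close to that of Tgfb2 therefore follow from the choice and are no evidence of a link. Within the pathway, Tgfbr2 (0.186), Smad3 (0.197) and Tgfb1 (0.219) were nearest to Tgfb2, at ranks 365, 475 and 733 of the 10035 genes. They are the other members lower without overlap, so their nearness restates that pattern. The inhibitor Skil was farthest (0.473).

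Nrros, the anchor of latent TGF-beta1, did not follow its cargo in every library. Nrros (ENSMUSG00000052384, chromosome 16, 31961603 to 31984412) gave 116, 126 and 115 CPM in WT, against 88.0, 132.5 and 100.04 CPM in the Selk-/- libraries. Replicates 1 and 3 labelled Selk-/- were below every WT library and replicate 2 was above all of them. That replicate is the one with 6372 CPM of neutrophil markers, and their part in its Nrros level was not tested. On the log2 scale the difference was -0.15 (SE 0.145, 95% interval -0.49 to 0.19), at an adjusted p of 0.593 in edgeR, and leaving out Selk-/- replicate 1, 2 or 3 gave -0.02, -0.32 and -0.09 (edgeR adjusted p = 0.215 for the second). The ratio of Nrros to Tgfb1, in FPKM (fragments scaled by gene length and depth), was 0.335 to 0.424 in WT and 0.328, 0.499 and 0.350 in the Selk-/- libraries (exact permutation p = 0.9, adjusted over 4 ratios 0.9).

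**Figure D1:**
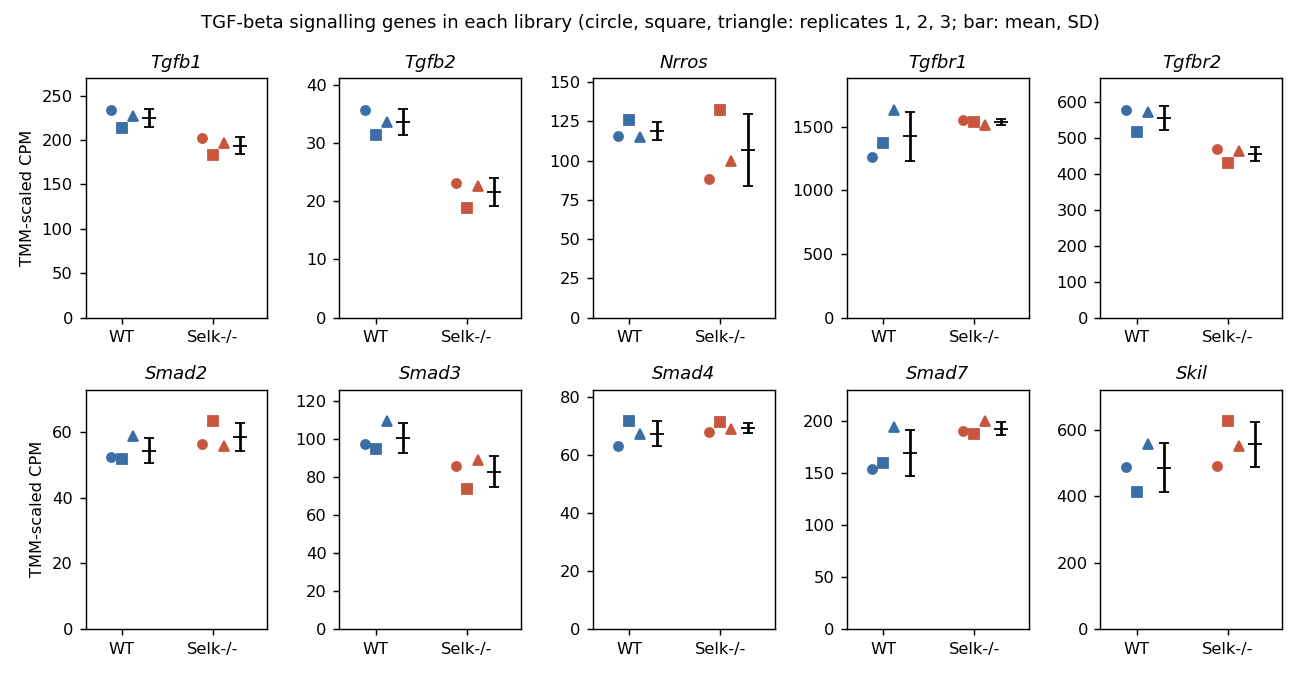
TMM-scaled CPM of each of the 10 genes in the 3 WT (blue) and 3 Selk-/- (red) libraries; symbols mark replicates 1, 2 and 3 and black bars the mean and SD. Tgfb1, Tgfb2, Tgfbr2 and Smad3 have all 3 Selk-/- points below all 3 WT points, and the groups of the other 6 genes overlap.

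The receptors had estimates of opposite sign, and the 95% interval of Tgfbr1 included 0. Tgfbr2 (ENSMUSG00000032440, chromosome 9, 115913361 to 116004428), which binds the ligand first, gave 578, 517 and 572 CPM in WT, against 468, 431 and 464 CPM in the Selk-/- libraries. All 3 Selk-/- libraries were below all 3 WT libraries, with means of 556 ± 33.5 and 454 ± 20.3 CPM (SD, n = 3 each). Its difference in log2 was -0.29 (SE 0.078, 95% interval -0.47 to -0.11), at an adjusted p of 0.133 in edgeR, and DESeq2 called it at -0.30 (adjusted p = 0.00859).

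Tgfbr1 (ENSMUSG00000007613, chromosome 4, 47353222 to 47414931), the kinase that phosphorylates SMAD2 and SMAD3, gave 1263, 1376 and 1634 CPM in WT, against 1557, 1537 and 1516 CPM in the Selk-/- libraries. The Selk-/- values lay close together, inside the wide WT range and below its highest library. The edgeR estimate was 0.11 (SE 0.102, 95% interval -0.13 to 0.35), at an adjusted p of 0.587 in edgeR. It was 0.03 without WT replicate 1 and 0.23 without WT replicate 3.

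Set against each other within each library, the receptors separated the groups. Tgfbr2 did so alone, so the ratio is not a reading apart from it. The FPKM ratio of Tgfbr1 to Tgfbr2 was 3.098, 3.75 and 4.03 in WT and 4.67, 4.78 and 4.32 in the Selk-/- libraries. Every Selk-/- ratio was above every WT ratio, with means of 3.63 ± 0.479 and 4.59 ± 0.237 (SD, n = 3 each). The log2 ratio differed by 0.35 (exact two-sided permutation p = 0.1, the smallest that 3 against 3 libraries allow; adjusted over 4 ratios 0.4), and in CPM by 0.41.

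Of the SMADs that TGFBR1 activates, Smad3 and Smad2 had estimates of opposite sign, and the groups overlapped for Smad2. Smad3 (ENSMUSG00000032402, chromosome 9, 63554049 to 63665276) gave 97.2, 94.6 and 109 CPM in WT, against 85.4, 73.6 and 89.0 CPM in the Selk-/- libraries. The groups did not overlap, and replicate 2 labelled Selk-/- was the lowest. On the log2 scale the difference was -0.28 (SE 0.093, 95% interval -0.50 to -0.06), at an adjusted p of 0.179 in edgeR and 0.0730 in DESeq2. Omitting single libraries gave -0.32 to -0.19, the last without Selk-/- replicate 2.

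Smad2 (ENSMUSG00000024563, chromosome 18, 76374651 to 76444034) gave 52.5, 51.9 and 58.8 CPM in WT, against 56.5, 63.4 and 55.8 CPM in the Selk-/- libraries. WT replicate 3 lay inside the Selk-/- range, and edgeR estimated a log2 difference of 0.11 (SE 0.083, 95% interval -0.09 to 0.30), at an adjusted p of 0.516, with 0.06 to 0.18 on omitting single libraries. The deposited FPKM of Smad2 did not track its counts. Counts per unit of FPKM correspond to a transcript length of 3995 to 8515 bases between libraries for Smad2, whereas the same quantity was 5913 to 5964 bases for Smad3. Smad2 FPKM was 6.31 in WT replicate 1 and 12.9 in WT replicate 2, from 1480 and 1373 counts, so levels of Smad2 are read here from counts.

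In CPM, the ratio of Smad2 to Smad3 was 0.540, 0.549 and 0.538 in WT and 0.662, 0.862 and 0.627 in the Selk-/- libraries. The 3 WT ratios were almost equal, and all 3 Selk-/- ratios were above them (log2 difference 0.39, exact permutation p = 0.1). Smad3 alone also separated the groups, so this ratio is not a reading apart from it. In FPKM the difference was 0.30 and the groups overlapped (exact permutation p = 0.6, adjusted over 4 ratios 0.9).

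Smad4 (ENSMUSG00000024515, chromosome 18, 73772080 to 73836851), the partner shared with the bone morphogenetic protein (BMP) branch, was the steadiest of the 10. It gave 63.1, 71.8 and 67.3 CPM in WT, against 67.8, 71.3 and 69.0 CPM in the Selk-/- libraries. The highest library was 1.14 times the lowest over all 6, against 1.901 times for Tgfb2. Its difference in log2 was 0.04 (95% interval -0.12 to 0.20; edgeR adjusted p = 0.775), and without WT replicate 1 it was -0.01.

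The inhibitors Smad7 and Skil, both also targets of the pathway, had estimates above WT. Smad7 (ENSMUSG00000025880, chromosome 18, 75500600 to 75529006) gave 154, 160.0 and 194 CPM in WT, against 191, 188 and 200.3 CPM in the Selk-/- libraries. WT replicate 3 lay among the Selk-/- libraries and WT replicates 1 and 2 below them. The edgeR estimate was 0.19 (SE 0.099, 95% interval -0.04 to 0.42) in log2, at an adjusted p of 0.345, with 0.12 to 0.31 on omitting single libraries.

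Skil (ENSMUSG00000027660, chromosome 3, 31149207 to 31176726) gave 488, 414 and 559 CPM in WT, against 492, 628 and 551 CPM in the Selk-/- libraries. Its values spread widely in both groups, and they overlapped. On the log2 scale the difference was 0.19 (SE 0.132, 95% interval -0.11 to 0.50), at an adjusted p of 0.460 in edgeR, and with the 2 levels of small nucleolar RNA as a block it was 0.01. Omitting single libraries gave 0.09 to 0.31. The FPKM ratio of Skil to Smad7 was 1.89 ± 0.154 in WT and 1.88 ± 0.252 in the Selk-/- libraries (SD, n = 3 each; exact permutation p = 0.9, adjusted over 4 ratios 0.9).

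**Figure D2:**
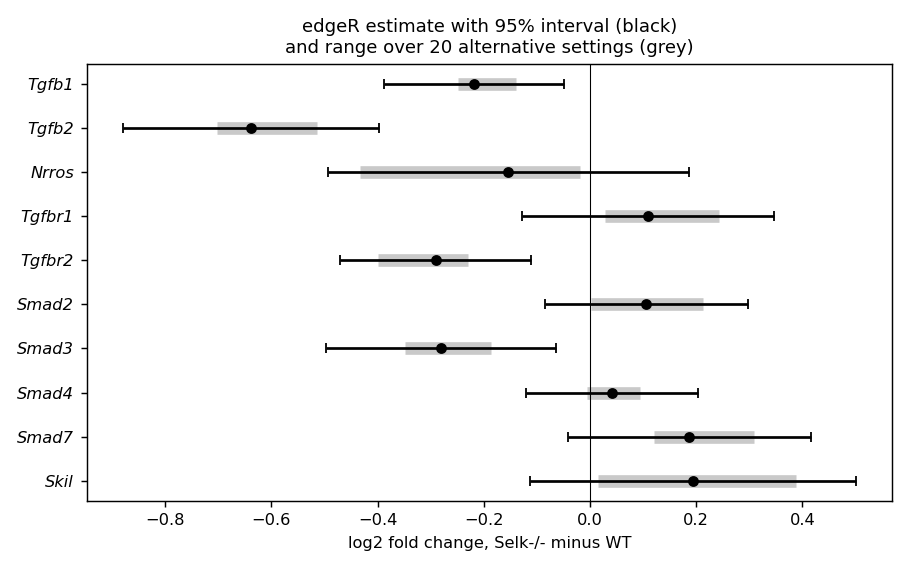
edgeR log2 fold change of each gene, Selk-/- minus WT, with its 95% interval in black and the range over 20 other settings of the fit in grey. Tgfb2 lies at -0.64, Tgfb1, Tgfbr2 and Smad3 between -0.22 and -0.29, and the intervals of the other 6 genes include 0.

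Per length, Tgfbr1 was the highest of the 10 genes. Its FPKM was 199 to 249 over the 6 libraries, and its mean of 225 FPKM ranked 257 among the 17739 genes tested. Tgfb1 (73.1 to 96.5 FPKM), Skil (55.7 to 80.7) and Tgfbr2 (48.3 to 64.1) followed, and each overlapped its neighbour in this order. Smad7 (32.1 to 40.7 FPKM) and Nrros (26.2 to 36.5) overlapped each other and lay below Tgfbr2. Smad4 (16.7 to 18.2 FPKM) overlapped Smad3 (12.2 to 18.3), Smad2 followed at 6.31 to 13.3 FPKM with the doubt given above, and Tgfb2 was lowest at 3.33 to 6.40 FPKM, with neighbours overlapping throughout, near the middle of all genes tested at percentile 49.5.

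**Figure D3:**
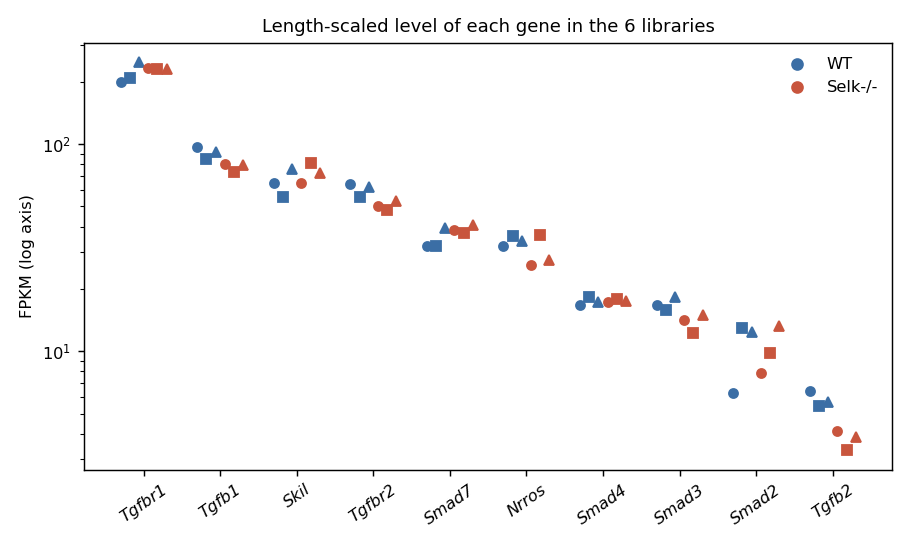
FPKM of each gene on a log axis, WT in blue and Selk-/- in red, with symbols for replicates 1, 2 and 3; genes are ordered by their mean over the 6 libraries. Tgfbr1 is at 199 to 249 FPKM and Tgfb2 at 3.33 to 6.40 FPKM, and the Smad2 points scatter from 6.31 to 13.3 FPKM.

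The summed microglia markers were lower in each Selk-/- library, as were Tgfb1, Tgfb2, Tgfbr2 and Smad3. The estimates of all 10 defining markers were below WT, their median log2 fold change was -0.17 and they ranged from -0.53 (Cx3cr1, the fractalkine receptor) to -0.09 (Itgam, an integrin chain), and 5 of them did not overlap. Without overlap were also 26.2% of all genes tested and 34.2% of those with at least 10 CPM in 3 libraries. None of the markers passed in edgeR (adjusted p from 0.105). Their sum did not overlap between groups and differed by -0.21 in log2 (exact permutation p = 0.1, adjusted over 12 marker lists 0.4). Border macrophage markers, from 787 to 1150 CPM in WT and 357 to 723 CPM in the Selk-/- libraries, also did not overlap, with 11 of 11 lower and none at 0 throughout. Their part in the levels of the pathway genes was not tested.

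Expressed per 1000 CPM of summed microglia markers, a scale chosen after the values were seen, Tgfb1 was at 8.87 ± 0.417 in WT and 8.80 ± 0.236 in the Selk-/- libraries (SD, n = 3 each), a log2 difference of -0.01. Tgfb2 was at 1.32 ± 0.090 and 0.981 ± 0.087 (SD, n = 3 each), a log2 difference of -0.43, and Tgfbr2 and Smad3 differed by -0.08 and -0.07. Tgfbr1, Smad2, Smad4, Smad7 and Skil differed by 0.33, 0.31, 0.25, 0.40 and 0.41, and Nrros by 0.03. On this scale 5 members were higher without overlap and 1, Tgfb2, was lower without overlap. The marker sum differs by -0.21 in log2, so this scale raises the difference of every gene by about that amount and tests nothing about any of them. The markers in the denominator include genes that are themselves known to need TGF-beta signalling.

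**Figure D4:**
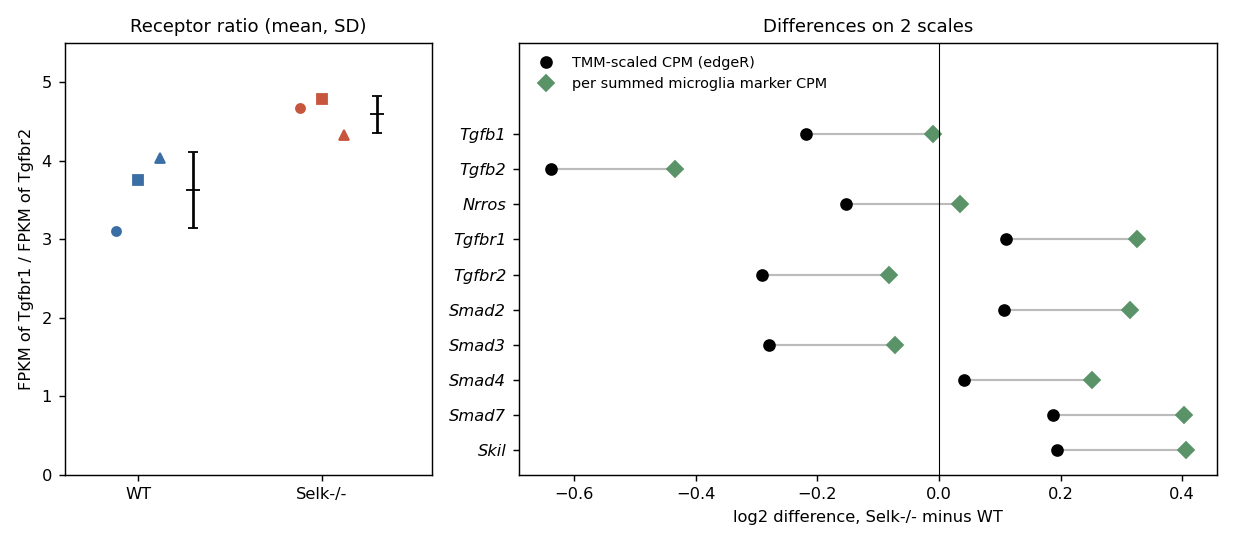
Left, FPKM ratio of Tgfbr1 to Tgfbr2 in each library with mean and SD; WT ratios are 3.098 to 4.03 and Selk-/- ratios 4.32 to 4.78. Right, log2 difference of each gene on TMM-scaled CPM (black circles) and per summed CPM of 10 microglia markers (green diamonds); Tgfb1 is at -0.22 and -0.01, and Tgfb2 at -0.64 and -0.43.

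The rest of the pathway was read from 8 lists written with earlier results of these data known. No gene of any list passed adjusted p 0.05 in edgeR, so the counts below are of genes without overlap between groups. Over all genes tested, 13.7% were lower and 12.5% higher without overlap, which is 26.2% in either direction. The stricter filter on expression, set at 10 CPM, raised this share to 34.2%. For lists of well-expressed genes the 34.2% is the closer background, and it is not split by direction here. Among 16 tested genes that store or release latent TGF-beta, 2 were lower and 1 higher, and the median log2 fold change was -0.05, beside -0.01 for all genes tested. Over 20 other settings of the fit this median ran from -0.11 to 0.03, and the brackets after the medians below give the same range. The integrin chain Itgb1 averaged 574 ± 27.2 CPM in WT, against 729 ± 35.1 CPM in the Selk-/- libraries (SD, n = 3 each; log2 fold change 0.34, edgeR adjusted p = 0.108, DESeq2 adjusted p = 0.00145). The proteases Mmp14 (-0.31) and Mmp2 (-0.19) were the 2 lower genes. Itgb5, the most abundant of the list by mean FPKM, the measure used for this in each list, was at -0.09 with overlap.

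Other ligands and receptors of the TGF-beta and activin branch gave 0 lower and 2 higher of 14 tested, with a median of 0.10 (0.03 to 0.16). These 2 were the ligand genes Inhbb (0.52, mean 1.86 CPM in WT and 2.67 CPM in Selk-/-) and Gdf11 (0.20, mean 6.08 and 6.98 CPM), both at low levels. Their groups barely separated. The highest WT and lowest Selk-/- libraries were at 2.155 and 2.162 CPM for Inhbb and at 6.317 and 6.376 CPM for Gdf11. The co-receptor Tgfbr3 was at 0.16, and the endothelial co-receptor Eng, the highest of the list in FPKM, at 0.06, both with overlap.

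SMAD cofactors and regulators held genes in both directions, with 5 lower and 6 higher of 26 tested and a median of 0.12 (0.03 to 0.16, lowest with the length trend removed). The homeobox repressor Tgif2, which binds SMADs, was at 26.6 ± 3.81 and 18.4 ± 1.14 CPM (SD, n = 3 each; log2 fold change -0.53, edgeR adjusted p = 0.109, DESeq2 adjusted p = 0.00879). Smurf2, a ubiquitin ligase that SMAD7 brings to the receptor, was at 0.32 (89.1 ± 7.84 to 111 ± 2.89 CPM; edgeR adjusted p = 0.118), and Trim33, which acts on SMAD4 and binds SMAD2 and SMAD3, at 0.26 (edgeR adjusted p = 0.147). The related ligase Smurf1, named after its value was seen, was at -0.06. Cited2, a transcriptional coregulator and the highest of the list in FPKM, was at 0.25 with overlap.

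Effectors outside the SMADs gave 2 lower and 2 higher of 17, with a median of -0.02 (-0.05 to 0.06). The kinases Rock1 (0.52, 122 ± 9.34 to 174 ± 12.98 CPM, SD, n = 3 each) and Mapk8, which encodes JNK1 (0.37), were the higher pair, each called by DESeq2 (adjusted p = 6.0e-05 and 0.0161). The kinase Map2k6 was at -0.31, and the small GTPase Rhoa, the most abundant, at 0.01.

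The BMP branch, which shares SMAD4 with TGF-beta, gave 2 lower and 4 higher of 22, with a median of 0.03 (-0.06 to 0.14). The type I receptor Bmpr1a was at 0.39 and Id1, a classical BMP target and the highest of the list in FPKM, at 0.37 (183 ± 6.92 to 236 ± 22.2 CPM, SD, n = 3 each; edgeR adjusted p = 0.109, DESeq2 adjusted p = 0.00519). The ligand Bmp2 was at -0.59 (mean 10.1 CPM in WT and 6.69 CPM in Selk-/-). Id1 and Bmp2 are known in endothelial cells, whose summed markers were 3162 to 3911 CPM in WT and 3563 to 4859 CPM in the Selk-/- libraries, with overlap; their part was not tested.

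General target genes of TGF-beta gave 4 lower and 2 higher of 22, with a median of -0.03 (-0.10 to 0.05). Of the lower genes, Ldlrad4, Pmepa1 and Ski were also counted among the lower SMAD regulators above. Tgif1 and Bambi stand in that list too, and Smad6 in the BMP list, so these lists are not separate readings. The membrane protein Ldlrad4, which restrains SMAD activation, averaged 51.7 ± 2.81 CPM in WT, against 41.2 ± 5.86 CPM in the Selk-/- libraries (SD, n = 3 each; log2 fold change -0.33, edgeR adjusted p = 0.178). The transcription factors Klf11 (0.38) and Runx1 (0.25) were the higher pair, and the AP-1 subunit Junb, the most abundant, was at -0.14 without overlap.

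Microglial genes known in the mouse to need TGF-beta signalling were the list with the most genes below WT. Of 21 genes, 20 had an estimate below WT, 13 were lower without overlap and 0 were higher, with a median of -0.18 (-0.27 to -0.14). Cx3cr1 averaged 2851 ± 222 CPM in WT, against 1977 ± 38.2 CPM in the Selk-/- libraries (SD, n = 3 each). Its log2 fold change was -0.53 (edgeR adjusted p = 0.105, DESeq2 adjusted p = 1.6e-07). The Fc receptor-like gene Fcrls was at -0.43, the purinergic receptor P2ry13 at -0.38, and Cst3, the cystatin C gene and the most abundant, at -0.09. This list shares genes with the resting microglia genes already known to be lower in these libraries, and is no independent evidence.

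Microglial genes known in the mouse to be higher when TGF-beta signalling is lost went both ways. Of 24 genes, 4 were lower and 5 higher without overlap, with a median of 0.01 (-0.25 to 0.10). The median was -0.25 with the small nucleolar RNA split as a block and -0.23 without the libraries low in that RNA. Spp1, the secreted phosphoprotein osteopontin, averaged 42.2 ± 1.74 CPM in WT, against 56.0 ± 2.13 CPM in the Selk-/- libraries (SD, n = 3 each). Its log2 fold change was 0.41 (edgeR adjusted p = 0.105, DESeq2 adjusted p = 0.0011). The class II gene H2-Ab1 was at -0.83, the lysosomal glycoprotein Cd68 at -0.27, and Apoe, the most abundant, at -0.55. The remaining genes without overlap are named after their values were seen. Ccl3 (0.77), Ccl2 (0.58), Tnf (0.36) and Ifitm3 (0.31) were higher, and Axl (-0.18) was lower. Class II genes are also high in border macrophages and B cells, and summed B cell markers were 189.8 to 229 CPM in WT and 148 to 158 CPM in the Selk-/- libraries.

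**Figure D5:**
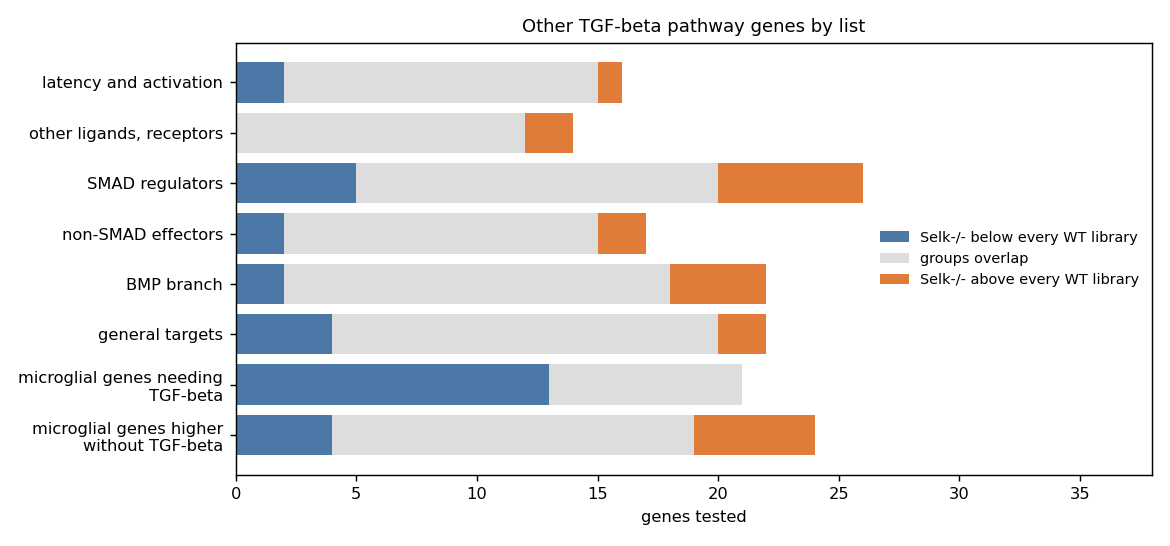
Number of genes tested in each of 8 lists, split into those with every Selk-/- library below every WT library (blue), those with overlap (grey) and those with every Selk-/- library above (orange). Microglial genes that need TGF-beta have 13 of 21 below and 0 above, and SMAD cofactors and regulators have 5 of 26 below and 6 above.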

How the data were processed

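RNA-seq of adult microglia was analysed from 1 table with raw counts and FPKM per Ensembl gene for 6 libraries. The deposited counts and FPKM were made by the authors with Hisat2 2.0.5 as aligner, stringtie 2.2.0 for quantification and DESeq2 1.20.0 for testing, per the labels' protocols. A different aligner, Bowtie 0.12.2, and 2 builds, mm8 and mm9, stand in the submitters' processing notes, and the table itself names no build. The sources used here do not give strand handling.

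Counts went into edgeR 4.0.16 under R 4.3.3 as deposited (TMM, filterByExpr, robust quasi-likelihood fit, no covariate, two-sided, Benjamini-Hochberg over 17739 genes at 0.05). Alternatives used DESeq2 1.42.0 on all 33412 genes with any count, and limma 3.58.1 on voom values or on log2(FPKM + 1) and log2(FPKM + 0.1). Ratios and marker sums were compared by exact permutation. In counts simulated for this comparison over 17739 genes, edgeR called 23.4%, 51.7% and 79.4% of genes changed 1.5-fold, 2-fold and 4-fold, with 11 false calls. Depth was 21112082 to 28123871 counts, so 3 counts are 0.107 to 0.142 CPM of the unscaled total, for counting error only. Groups came from the genotype labels and replicate numbers are names only. The genes, lists and tests were chosen with earlier results of these data known. Named list genes are, per list, the 3 with the smallest p and a mean of at least 1 CPM, and the most abundant by mean FPKM.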

Additional observations from a re-analysis of the deposited data

How the results depend on the processing

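Over 20 other settings of the fit, the log2 fold changes of Tgfb1, Tgfb2, Tgfbr2 and Smad3 were -0.25 to -0.14, -0.70 to -0.51, -0.40 to -0.23 and -0.35 to -0.19. The scale per microglia marker level is not among these 20; there Nrros was at 0.034. Members past adjusted p 0.05 numbered 0, and 1 with at least 10 CPM in 3 libraries and 2 with DESeq2. Genes past it over the whole table numbered 0, and 92, 995 and 1 with that filter, DESeq2 and limma-voom; omitting single libraries gave 0 to 59 (59 when Selk-/- replicate 1 and 1 when Selk-/- replicate 2 was omitted). List genes past it numbered 0, and 3 and 28 with that filter and DESeq2. Members with an unadjusted p under 0.05 numbered 4, and 2 with the small nucleolar RNA split as a block and 5 with limma-voom. They numbered 3 without WT replicate 1, without Selk-/- replicate 2, without Selk-/- replicate 3 and without the libraries with 2 numbers in the title. The setting without the libraries with low small nucleolar RNA was added later and leaves 1 Selk-/- library.

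Members without overlap numbered 4, and 4 to 8 on omitting single libraries, 8 being without WT replicate 3 (Tgfbr1, Smad2, Smad7 and Skil then lay above WT) and 8 without the 2 libraries with 2 numbers in the title. Fewer libraries overlap less by construction: among all genes 32.4% to 40.2% did not overlap on omitting single libraries, 40.2% without WT replicate 3, and 49.8% without those 2 libraries, against 26.2% with all 6. Leaving out each library moved the log2 ratio of Nrros to Tgfb1 between -0.15 and 0.15, of Smad2 to Smad3 between -0.022 and 0.54, and of Skil to Smad7 between -0.13 and 0.056; the last was 0.0028 in CPM and 0.023 without the libraries with 2 numbers. The Smad4 log2 fold change ranged from -0.0057 to 0.10, and the log2 differences of summed astrocyte, neuron, neutrophil and choroid plexus markers from -0.20 to 0.11, -0.049 to 0.049, -0.020 to 2.18 and -0.070 to 0.29. Except where fewer genes or libraries entered, the cause was not tested. The titles of the groups share 2 numbers, 3 (WT replicate 1 and Selk-/- replicate 3) and 6 (both replicates 2), and nothing says that these pair the libraries; deviations from the group means correlated over genes at 0.243 and -0.168. With these numbers as a replicate block, a fit added after the data were seen, 25 genes of the table and 0 members passed adjusted p 0.05, and 5 members had an unadjusted p under 0.05. With 3 libraries a group, p from permutation cannot fall below 0.1.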
